A study of Mus musculus with 12 samples.

Results

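A set of 13 mouse genes had a cardiopoietic level close to that of undifferentiated embryonic stem cells and was much lower in cardiomyocytes. They are *Nanog*, *Dppa2*, *Tfap2c*, *Pax6*, *Icam1*, *Ceacam1*, *Lgals3*, *Notum*, *Aqp3*, *Calcoco2*, *Dock6*, *Gtpbp6* and *Mylpf*, of 18193 genes that at least 1 probe set names alone. Each gene was represented by its brightest such probe set over the 12 arrays, on the scale log2(signal + 16). A gene was kept when its mean in cardiopoietic cells (CP) lay within 0.5 of its mean in stem cells with leukemia inhibitory factor, ES-LIF(+), when its mean in cardiomyocytes (CM) lay at least 1.5 below both, and when its mean ES-LIF(+) signal was 500 or more. The genes were thus chosen by their measured ES-LIF(+), CP and CM values, which are given as a description. The stage that entered the choice only through the pick of a probe set was ES-LIF(-), and the comparison of ES-LIF(-) with ES-LIF(+) is the only one whose test bears on the 13 genes. Calls in the other comparisons come from the same fit and are given for these genes as a description and for other gene lists as counts. The ES-LIF(-) comparison shares its ES-LIF(+) arrays with the choice of the genes.

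The cells were CGR8, a feeder-free mouse embryonic stem cell line, grown in Glasgow's modified Eagle's medium with 7.5% fetal bovine serum. ES-LIF(+) cells had LIF in the medium, and ES-LIF(-) cells had spent 48 h without it. CP and CM came from stem cells placed in a mixture of BMP, TGFβ, IL-13, IL3, IGF1, VEGF, EGF, FGF and IL6. The study's methods describe this step as following those stem cell cultures. The CP culture then lasted 5 days, with 3% serum and TNFα at 30 ng/ml, and the CM culture 9 days with 20% serum, and a Percoll gradient was used for their purification. Each stage has 3 arrays, which the study's methods describe as biological replicates, and this number limits the precision of every value below.

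Cardiomyocyte genes marked the CM stage, while markers of some other cell types were also higher in CP and CM than in ES-LIF(+). All 18 cardiomyocyte markers were called higher in CM than in ES-LIF(+), with a median difference of 6.23, against 0.06 over all tested genes. Their summed signal was 211860 to 237210 in CM, against 3837.2 to 4226.5 in CP. Markers of fibroblasts and mesenchyme summed to 61254 to 61570 in CM and 114030 to 121710 in CP, against 1342.7 to 1737 in ES-LIF(+). Extraembryonic endoderm markers summed to 28101 to 29327 in CM and 21668 to 22807 in CP, against 3937.9 to 4311.3 in ES-LIF(+). Only part of this list carried the sum, as 9 of 16 markers exceeded the array median on all CM arrays and 8 on all CP arrays. Of 11 tested, 7 were called higher and 2 lower in CM than in ES-LIF(+), with a median of 2.45, against 0.06 over all tested genes. In CP 7 were called higher and 0 lower, with a median of 1.45, against 0.04. Of all tested genes 23.9% were called lower in CM, and 19% higher and 13.4% lower in CP. The share of all tested genes called higher in CM was not counted, so counts of rises in CM stand beside medians only. Trophoblast markers summed to 3898.5 to 5701.4 in CM and 3064.6 to 3341.9 in CP, against 1976.4 to 2031.6 in ES-LIF(+). Here too only part of the list carried the sum, as 7 of 11 markers exceeded the array median on all CM arrays and 5 on all CP arrays. Of 8 tested, 3 were called higher and 1 lower in CP, with a median of 0.32, against 0.04 over all tested genes. Endothelial markers, at 2594.2 to 3370.7 in CM, overlapped ES-LIF(+) in CP (1704.7 to 2126.7 against 1653 to 2289.3). Neural markers were lower in CP, at 3287.3 to 3899.9, than in ES-LIF(+), at 4483.6 to 4976.2, and read 4949.9 to 5124.4 in CM. Blood markers were uneven among the CM arrays, where their sum ranged between 1304.3 and 18453, against 415.9 to 666.2 in CP. The 10 markers of undifferentiated stem cells, *Nanog* among them, all stayed above the array median on every array of every stage. Their summed signal was 92267 to 95894 in ES-LIF(+), 65398 to 70568 in ES-LIF(-), 69285 to 75920 in CP and 19982 to 27468 in CM. In such bulk cultures fewer cells of a type and less RNA per cell cannot be told apart, and the part of these cell mixtures in the levels below was not tested.

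LIF binds a receptor that contains gp130 and activates STAT3, and through this route mouse embryonic stem cells are held in a naive, self-renewing state. NANOG, a homeodomain transcription factor, is one of the proteins that stabilise this state. Withdrawal of LIF starts its dismantling within days, and cells that become cardiac muscle normally shut the pluripotency factors off. Several of the other genes act at the cell surface or outside the cell, in adhesion, Wnt control and water transport.

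Few bright genes combined a stem cell level in CP with a deep fall in CM. Of 6666 genes with an ES-LIF(+) signal of 500 or more, 516 lay at least 1.5 lower in CM than in ES-LIF(+), and only 70 of these also lay at least 1.5 below CP. The CP level was below the window for 55 of the 70, above it for 2 and inside it for 13, which is 2.52% of the 516. Without the signal minimum 33 genes met the thresholds. The members nearest the CP window's edge were *Dock6*, *Pax6* and *Calcoco2*, at 0.45, 0.37 and 0.28 from ES-LIF(+), and just outside lay *Mreg*, *Dppa3* and *Snhg3* at 0.51, 0.53 and 0.53. Nearest the CM threshold were *Ceacam1*, *Notum* and *Lgals3*, which differed from the lower of ES-LIF(+) and CP by -1.55, -1.55 and -1.56, while *Epp13*, *Zfp423* and *Fsd1* missed it at -1.45, -1.45 and -1.43. The dimmest members were *Pax6*, *Aqp3* and *Dock6*, with ES-LIF(+) signals of 521, 555 and 658, and the brightest genes left out by the signal minimum alone were *Gdap10* at 320, *Frat2* at 309.8 and *Cep152* at 286.

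**Figure D1:**
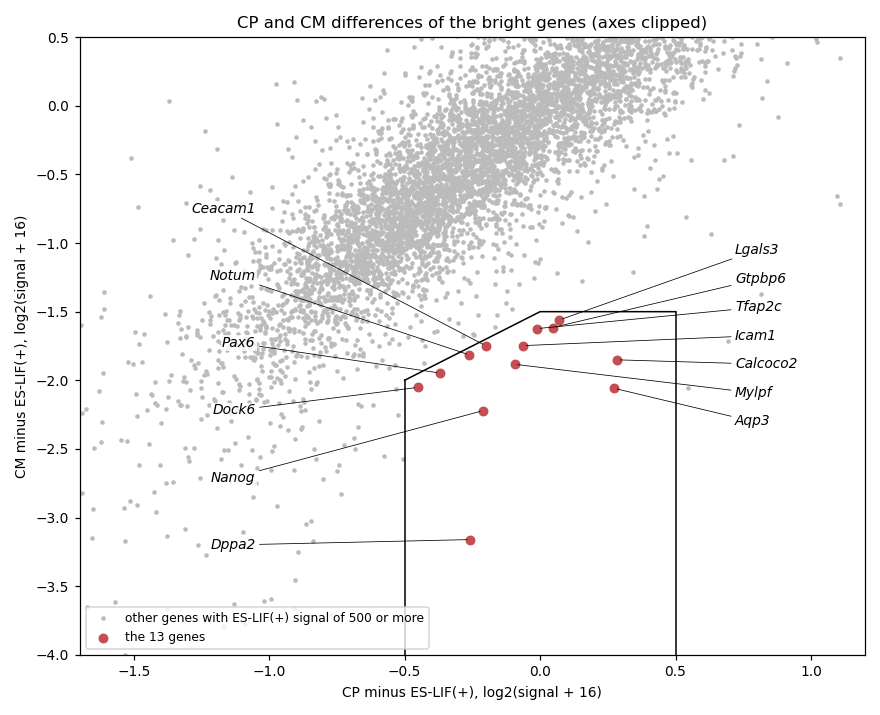
Each point is a gene with a mean ES-LIF(+) signal of 500 or more; the x axis gives CP minus ES-LIF(+) and the y axis CM minus ES-LIF(+), both as differences of stage means of log2(signal + 16), with both axes clipped. The black outline encloses the area of the thresholds, and the 13 named genes in red lie in a sparse part of the plot, with *Dppa2* lowest at -3.16.

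Most of the genes remained measurable in CM. All 13 were called lower in CM than in ES-LIF(+) and lower in CM than in CP, where 23.9% and 10.5% of the 13145 tested genes were called (37.5% and 13.5% of those with an ES-LIF(+) signal of 500 or more), but those contrasts chose the genes. On the CM arrays 9 of the 13 still exceeded the array median on all 3 arrays, and none lay below it on all 3. The level of *Nanog* in CM remained far above the array median (1383.5, 1334 and 1987.7, with array medians of 137.9, 127.7 and 144.1), whereas *Aqp3* read 138.1, 81 and 125.7 on the same arrays and *Pax6* 134.8, 153.4 and 87.5, both around the median. A signal near the median is close to the background of this array type, so a low level and absence cannot be told apart for these genes.

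Without LIF, most of the 13 genes had already fallen. In ES-LIF(-), 9 of them were called lower than in ES-LIF(+) (limma, adjusted p under 0.05 and a fold above 1.5) and 0 higher, while 3.86% of the tested genes were called lower and 4.15% higher. Among tested genes with an ES-LIF(+) signal of 500 or more, 4.86% were called lower and 2.54% higher. The median difference of the 13 genes was -1.72 on the log2(signal + 16) scale, against 0.03 over all tested genes. All ES-LIF(-) arrays lay below all ES-LIF(+) arrays for 11 of the 13, as for 13.7% of tested genes. They also lay below all CP arrays for 10 of the 13, as for 29.9% of tested genes. Because CP values chose the 13 genes, the count against CP is a description only. The genes that passed were *Tfap2c*, *Calcoco2*, *Mylpf*, *Aqp3*, *Lgals3*, *Ceacam1*, *Notum*, *Icam1* and *Nanog*, and those that did not were *Dock6*, *Pax6*, *Dppa2* and *Gtpbp6*.

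**Figure D2:**
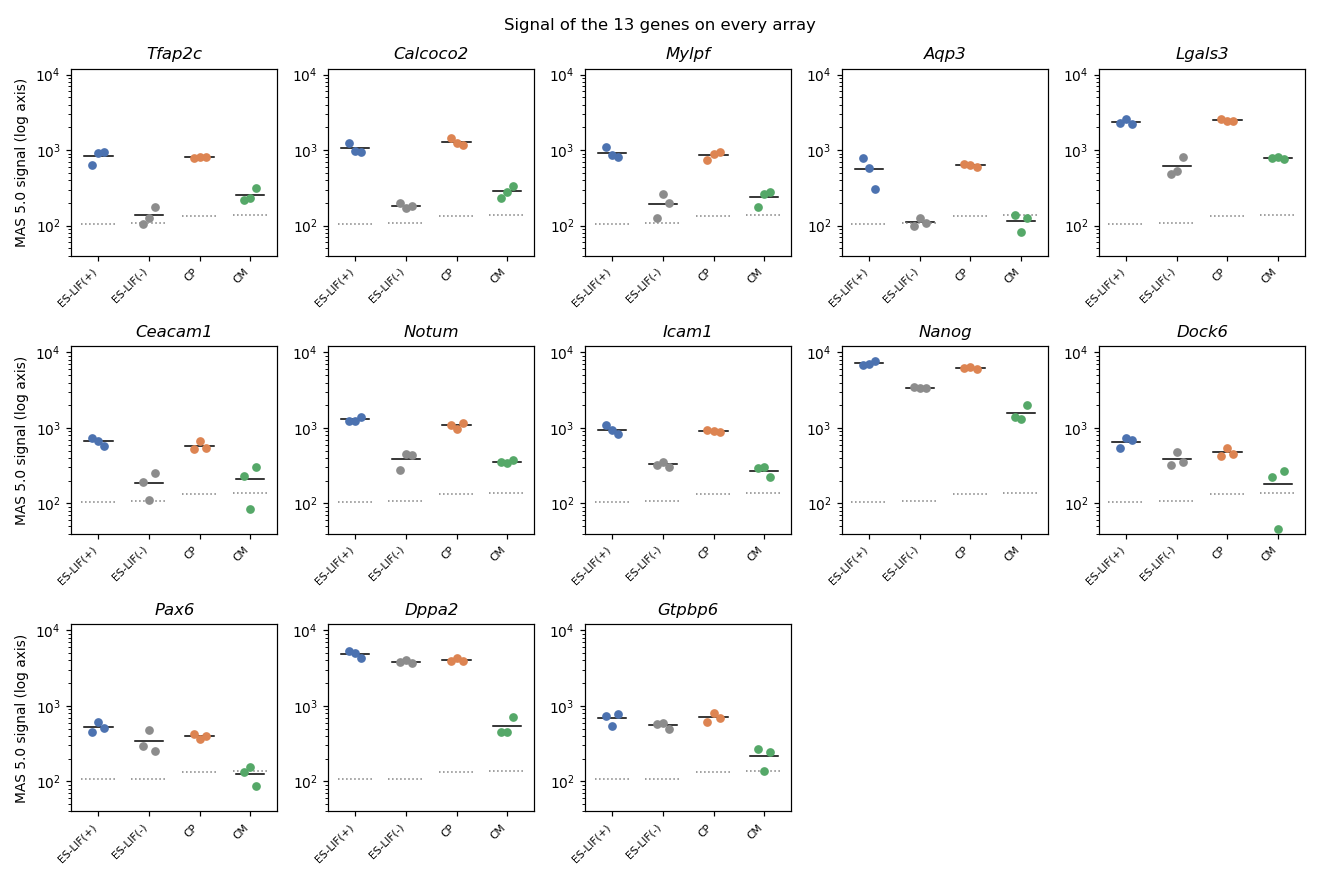
MAS 5.0 signal of the 13 genes on every array (log axis), with 1 point per array, a solid line at the mean of the 3 arrays of a stage and a dotted line at the mean of the array medians. For 9 genes the ES-LIF(-) points drop clearly below those of ES-LIF(+) and CP, while *Dppa2*, *Gtpbp6*, *Pax6* and *Dock6* stay closer to them.

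Loss of signal without LIF was not particular to these genes. Of the 55 bright genes that also lay at least 1.5 lower in CM than in both stages but were below the window in CP, 33 were called lower in ES-LIF(-) and 2 higher, with a median difference of -0.94. The median CM minus ES-LIF(+) was -1.85 for the 13 genes, against -2.92 for the 55. Of the 484 bright genes that were at least 1.5 lower in CM than in ES-LIF(+) and already more than 0.5 lower in CP, 110 were called lower (22.7%) and 12 higher, and their median was -0.17. Among the 4113 bright genes whose CP level stayed within 0.5 of ES-LIF(+), whatever they did in CM, 118 were called lower (2.87%) and the median was 0.03. Differences between these sets were not tested.

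**Figure D3:**
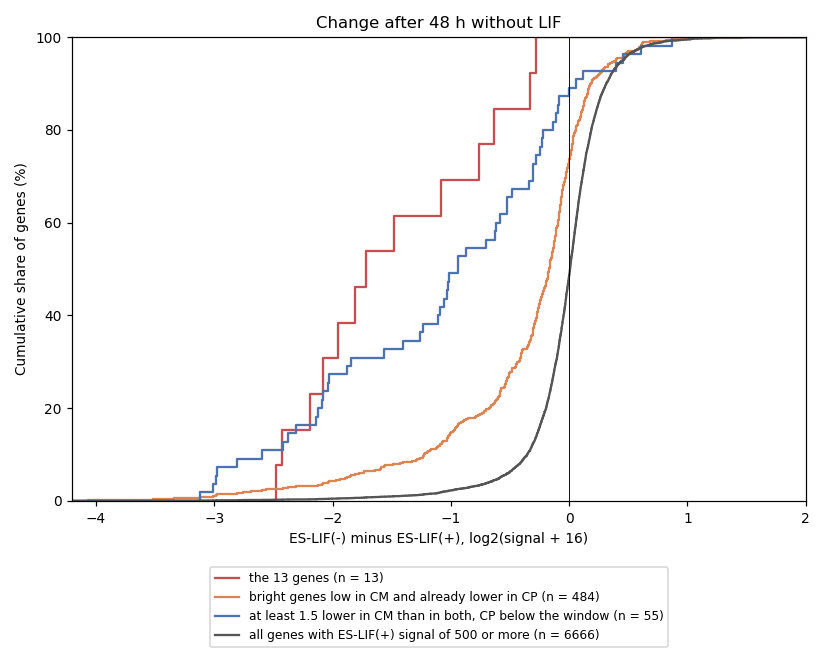
Cumulative share of genes (y axis, percent) by their ES-LIF(-) minus ES-LIF(+) difference (x axis, log2(signal + 16)). The curve of the 13 genes (red) lies to the left of the 484 genes already lower in CP (orange) and of all 6666 bright genes (grey), and it meets the curve of the 55 genes below the CP window (blue) near -2.

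Pluripotency factors supplied 2 of the 13. *Nanog* (chromosome 6, 122707489 to 122714633) had signals of 3445.7, 3420 and 3387.9 in ES-LIF(-), against 6903.5, 7132.8 and 7744.5 in ES-LIF(+). It read 1383.5, 1334 and 1987.7 in CM, against 6235.3, 6518.7 and 6049.4 in CP. No stage overlapped another, and the order was ES-LIF(+), CP, ES-LIF(-) and CM. The fall without LIF was 2.12-fold (log2 -1.08, SE 0.11, limma adjusted p = 8.50e-06), and CM minus ES-LIF(+) was -2.22.

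*Dppa2* (chromosome 16, 48310274 to 48319513), a SAP-domain protein of pluripotent cells that binds chromatin, behaved differently. Its signals were 3759.3, 4114.7 and 3719.7 in ES-LIF(-), against 5313, 5052.2 and 4274.2 in ES-LIF(+), a difference of -0.33 (SE 0.14) that did not pass the test (limma adjusted p = 0.123). In CM it read 458.2, 450.6 and 716.1, against 3978.9, 4295.8 and 3922.7 in CP, and CM minus ES-LIF(+) was -3.16, the deepest of the 13. The groups ES-LIF(-) and CP overlapped, and with this probe set the drop lay almost wholly between CP and CM.

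Other pluripotency genes mostly lay below the window in CP. Of 34 tested genes of the pluripotency network, 17 were called lower and 1 higher in ES-LIF(-) than in ES-LIF(+), 27 lower and 1 higher in CP, and 33 lower and 1 higher in CM. Their medians were -0.58 in ES-LIF(-), -0.92 in CP and -2.56 in CM, against 0.03, 0.04 and 0.06 over all tested genes. Besides *Nanog* and *Dppa2*, the CP window held *Utf1* (CP minus ES-LIF(+) -0.44) and *Dppa5a* (0.34), whose CM minus ES-LIF(+) values of -1.46 and -1.21 missed the CM threshold. *Pou5f1*, the gene of OCT4, had a CP difference of -0.74 and *Sox2* of -0.84, both below the window. The list of 19 tested LIF response genes, which holds none of the 13, had 15 called lower and 0 higher in ES-LIF(-), with a median of -1.56, and 12 lower and 5 higher in CP, with a median of -0.90. These comparisons share the ES-LIF(+) arrays. Of all tested genes they called 3.86% lower and 4.15% higher in ES-LIF(-). In CP they called 13.4% lower and 19% higher, and in CM 23.9% lower.

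The *Nanog* promoter is shown because a paired OCT4 and SOX2 element is known to lie there. In the 250 bases before the RefSeq start (GRCm38.p6, chr6:122707239-122707488, plus strand) capitals mark the octamer core ATGCAAA, 75 bases before the start and read here on the opposite strand as TTTGCAT, and the SOX core CATTGT, 67 bases before it and likewise on the opposite strand. They stand next to each other without overlap. In the other *Nanog* entry, whose start lies further downstream, the same cores lie 151 and 143 bases before that start.
Nanog: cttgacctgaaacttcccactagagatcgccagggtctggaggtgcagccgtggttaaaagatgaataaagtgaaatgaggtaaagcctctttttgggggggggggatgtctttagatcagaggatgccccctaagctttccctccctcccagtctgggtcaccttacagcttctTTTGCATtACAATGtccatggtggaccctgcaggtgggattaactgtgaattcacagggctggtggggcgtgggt
In each promoter entry both strands of the 250 bases before the start were searched. The octamer core was in 4.12% and the SOX core in 10.7% of all 32851 entries. Among the 13 genes the octamer core was found in *Nanog* only and the SOX core in *Ceacam1*, *Gtpbp6* and *Nanog*, with 9 of the 13 having an entry. The whole octamer ATGCAAAT was in 0 of them and in 1.60% of all entries. These cores were chosen after the values were seen, and a match is a stretch of letters, not a binding site.

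Among the other transcription factors, *Tfap2c* had the deepest fall without LIF. It encodes AP-2γ, known from trophoblast and primordial germ cells, and lies on chromosome 2 (172545678 to 172558622). Its signals were 103.7, 126.3 and 178.2 in ES-LIF(-), against 633.7, 907.9 and 933.1 in ES-LIF(+). In CM they were 220.7, 234 and 313.2, against 796.6, 809.5 and 813.7 in CP. The ES-LIF(-) arrays reached the array median and did not overlap ES-LIF(+), and the fall was -2.48 on the log2(signal + 16) scale (SE 0.19, limma adjusted p = 4.82e-07). With ES-LIF(-) so near the background its size is uncertain, and it was -2.61 and -2.15 with pseudocounts of 1 and 64. Every CM array lay above every ES-LIF(-) array, by 0.85 on average. Of 8 tested trophoblast markers, *Tfap2c* included, 2 were called lower and 1 higher in ES-LIF(-), where 3.86% and 4.15% of all tested genes were called. *Tfap2c* was the 1 called lower than ES-LIF(+) in CM, where 6 were called higher and 23.9% of all tested genes lower. The median CM minus ES-LIF(+) of the 8 was 1.36, against 0.06 over all tested genes.

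*Pax6*, a paired-box factor of eye and brain development on chromosome 2 (105668896 to 105698410), was less clear. It read 293.3, 476.1 and 249.8 in ES-LIF(-), against 447.6, 607.1 and 508.5 in ES-LIF(+), and the groups overlapped through replicate 2 of ES-LIF(-). The difference of -0.64 (SE 0.23) did not pass (limma adjusted p = 0.0753). Without replicate 2 of ES-LIF(-) it was -0.89 and passed (adjusted p = 0.0143), and without replicate 3 of CM, which changes only the shared estimate of spread, it passed as well (adjusted p = 0.0482). In CM the signals were 134.8, 153.4 and 87.5, around the array median, against 428.2, 364.7 and 398.5 in CP, where every array lay below every ES-LIF(+) array. Of 9 tested neural markers, *Pax6* included, 2 were called lower and 0 higher in ES-LIF(-) and 4 lower and 1 higher in CM. Their medians were -0.26 and -0.16, against 0.03 and 0.06 over all tested genes, of which 3.86% and 23.9% were called lower.

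A pair of adhesion receptors and a lectin fell together without LIF. *Icam1* (chromosome 9, 21015940 to 21028814) encodes an immunoglobulin-family receptor that leukocyte integrins bind. Its signals were 324.9, 358.8 and 307.7 in ES-LIF(-), against 1080.2, 943.3 and 836.7 in ES-LIF(+), and 291.7, 302.4 and 225.8 in CM, against 939.5, 900.4 and 882.8 in CP. ES-LIF(+) and CP overlapped and both stood apart from the pair of low stages. The fall without LIF was 2.79-fold (log2 -1.48, SE 0.13, limma adjusted p = 2.03e-06).

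*Lgals3* (chromosome 14, 47373860 to 47386167), the gene of galectin-3, a lectin that binds β-galactosides, had signals of 479, 534 and 819 in ES-LIF(-), against 2276.1, 2568.4 and 2213.5 in ES-LIF(+). It read 793.3, 809.7 and 754.9 in CM, against 2592.3, 2420.8 and 2396 in CP. ES-LIF(-) and CM overlapped, and the fall without LIF was 3.87-fold (log2 -1.95, SE 0.14, limma adjusted p = 2.72e-07). *Ceacam1* (chromosome 7, 25461702 to 25477647), a homophilic adhesion receptor of epithelia and leukocytes, read 194.2, 110.8 and 252.9 in ES-LIF(-), against 740.5, 675.8 and 577.7 in ES-LIF(+), a 3.51-fold fall (log2 -1.81, SE 0.34, limma adjusted p = 0.00174). The ES-LIF(-) array at 110.8 was near its array median of 104.3, and the fall was -1.90 and -1.58 with pseudocounts of 1 and 64. The CM arrays of *Ceacam1* were uneven, at 234, 85.1 and 308.6, against 529.8, 662.7 and 536.6 in CP, and CM replicate 2 alone lay below its array median. As a group, epithelial adhesion and junction genes did not follow these receptors, with 2 of 34 tested called lower and 9 higher in ES-LIF(-). Their median was 0.23, against 0.03 over all tested genes, of which 3.86% were called lower and 4.15% higher.

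The *Icam1* promoter is shown since the gene is known to respond to NF-kB and STAT factors in other cells. In chr9:21015690-21015939 (plus strand) capitals mark a match to GGANTTTCC, the NF-kB site, 153 bases before the start and read on the opposite strand, a match to TTCNNNGAA, the STAT site, 42 bases before it, and a GC box (GGGCGG, read as CCGCCC on the opposite strand) 17 bases before it, none overlapping another.
Icam1: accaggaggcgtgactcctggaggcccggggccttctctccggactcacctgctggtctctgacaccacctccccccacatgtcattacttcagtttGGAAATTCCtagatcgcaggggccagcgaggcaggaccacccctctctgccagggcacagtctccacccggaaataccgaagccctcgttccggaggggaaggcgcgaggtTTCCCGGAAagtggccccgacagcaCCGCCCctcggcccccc
Of all entries 1.07% held the NF-kB site, 7.02% the STAT site and 32.7% the GC box. Among the 9 of the 13 genes with an entry, *Icam1* alone held the NF-kB site or the STAT site. Both were chosen after the values were seen. *Dock6* lies on the same chromosome 771.4 kb from *Icam1*, and the 13 genes lie on 9 chromosomes.

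Of the secreted and transport proteins, *Notum* (chromosome 11, 120653788 to 120661193) encodes an enzyme that inactivates Wnt ligands by removing their lipid. It read 276.1, 452.7 and 441.4 in ES-LIF(-), against 1253.3, 1220.8 and 1414.6 in ES-LIF(+), a 3.30-fold fall (log2 -1.72, SE 0.16, limma adjusted p = 2.08e-06). Its CM signals of 355.2, 339.7 and 374.4 overlapped those of ES-LIF(-), against 1112, 962.1 and 1167.8 in CP, where each array lay below each ES-LIF(+) array. *Aqp3* (chromosome 4, 41092724 to 41098183), a channel for water and glycerol, read 99.1, 127.1 and 107.6 in ES-LIF(-), near the array median, against 777.8, 579.7 and 307.6 in ES-LIF(+), which were uneven. The fall was -2.08 on the log2(signal + 16) scale (SE 0.27, limma adjusted p = 6.80e-05), and its size is uncertain so near the background, at -2.22 and -1.74 with pseudocounts of 1 and 64. CM read 138.1, 81 and 125.7, against 650, 636.7 and 605.3 in CP, and CM and ES-LIF(-) overlapped.

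Of the 9 genes with a promoter entry, *Aqp3* alone held a TATA box (TATAAA), a motif found in 12.4% of all entries. In chr4:41098184-41098433 (minus strand) capitals mark it 29 bases before the start and a GC box, read as CCGCCC, 73 bases before it.
Aqp3: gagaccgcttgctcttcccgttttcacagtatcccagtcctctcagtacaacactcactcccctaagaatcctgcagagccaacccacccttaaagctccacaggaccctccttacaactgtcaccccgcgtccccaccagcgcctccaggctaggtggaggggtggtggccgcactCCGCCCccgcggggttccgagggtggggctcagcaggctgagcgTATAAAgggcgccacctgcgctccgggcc
A GC box was found in *Aqp3*, *Dock6*, *Gtpbp6*, *Icam1* and *Lgals3*.

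Among genes with roles inside the cell, *Calcoco2* and *Mylpf* fell without LIF. *Calcoco2* (chromosome 11, 96098916 to 96124560), whose human counterpart NDP52 is an autophagy receptor, read 196.1, 171.3 and 182.4 in ES-LIF(-), against 1248.6, 985.1 and 945.2 in ES-LIF(+), a 5.36-fold fall (log2 -2.42, SE 0.15, limma adjusted p = 4.89e-08). With pseudocounts of 1 and 64 the fall was -2.52 and -2.18. *Calcoco2* read 231.3, 281.5 and 336.4 in CM, above every ES-LIF(-) array, against 1445.6, 1246.8 and 1175.3 in CP. *Mylpf* (chromosome 7, 127208848 to 127214288) encodes the regulatory myosin light chain of fast skeletal muscle. It read 124.9, 258.5 and 199.9 in ES-LIF(-), against 1086.7, 867.8 and 806.9 in ES-LIF(+), a 4.58-fold fall (log2 -2.20, SE 0.22, limma adjusted p = 6.46e-06). The ES-LIF(-) array at 124.9 was near its array median of 110.2, and the fall was -2.29 and -1.95 with pseudocounts of 1 and 64. Unlike the cardiomyocyte markers, this muscle gene was low in CM, at 177.5, 262.4 and 280.4, against 747.4, 874.9 and 954.4 in CP.

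*Dock6* and *Gtpbp6* were not called without LIF. *Dock6* (chromosome 9, 21800180 to 21852718), an exchange factor for RAC1 and CDC42, read 328.1, 476.3 and 350.2 in ES-LIF(-), against 549.2, 725.9 and 700.2 in ES-LIF(+), with no overlap and a difference of -0.76 (SE 0.39, limma adjusted p = 0.224). Its CM arrays read 224.3, 46.2 and 265.8, against 427.1, 542.5 and 458.2 in CP, and without replicate 2 of CM the same difference passed (adjusted p = 0.00612). *Gtpbp6* (chromosome 5, 110103976 to 110108331), a GTP-binding protein that in human cells acts on mitochondrial ribosomes, read 576.5, 601.8 and 491.5 in ES-LIF(-), against 738.1, 542.7 and 771.2 in ES-LIF(+), with overlap (log2 -0.28, SE 0.21, limma adjusted p = 0.429). In CM it read 272.1, 137.9 and 243.9, against 616.5, 804.1 and 687.7 in CP.

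The *Gtpbp6* promoter stands here for a gene that was not called without LIF. In chr5:110108198-110108447 (minus strand) capitals mark 3 GC boxes, read as CCGCCC, at 174, 131 and 10 bases before the start.
Gtpbp6: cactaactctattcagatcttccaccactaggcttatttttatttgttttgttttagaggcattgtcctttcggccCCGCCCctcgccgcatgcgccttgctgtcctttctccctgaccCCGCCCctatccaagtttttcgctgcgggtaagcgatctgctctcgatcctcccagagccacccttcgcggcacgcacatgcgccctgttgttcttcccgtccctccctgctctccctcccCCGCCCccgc
CpG counts per promoter entry ran between 1 in *Mylpf* and 20 in *Dock6*, with 17 in *Gtpbp6*, 15 in *Icam1* and 14 in *Aqp3*, while all entries had a median of 6 and quartiles of 2 and 16. *Nanog* had 2 entries with 3 and 2 CpGs, and *Pax6* 2 entries with 15 each. No E2F site (TTTNGCGC) or ETS site (CCGGAAGT) was found in these windows of the 9 genes with a promoter entry.

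The genes differed in which stage was lowest. In 7 of them it was CM, and in 6 (*Aqp3*, *Calcoco2*, *Ceacam1*, *Lgals3*, *Mylpf* and *Tfap2c*) it was ES-LIF(-). For 6 of the 13 the ES-LIF(-) mean lay within 0.5 of the CM mean, and for 5 the ES-LIF(-) and CM arrays overlapped. As deposited, CP was highest in 4 genes (*Aqp3*, *Calcoco2*, *Gtpbp6* and *Lgals3*; not *Aqp3*, *Gtpbp6* and *Lgals3* with median centring, nor *Gtpbp6* with quantile normalization), and ES-LIF(+) in 9, and ES-LIF(+) and CP overlapped in 9. The other 4, *Dock6*, *Nanog*, *Notum* and *Pax6*, had every CP array below every ES-LIF(+) array. Since the window of 0.5 to either side is narrower than the 1.5-fold threshold of a call, 0 of the 13 were called in either direction between CP and ES-LIF(+), where 13.4% of tested genes were called lower and 19% higher (21.4% and 8.93% of those with an ES-LIF(+) signal of 500 or more).

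**Figure D4:**
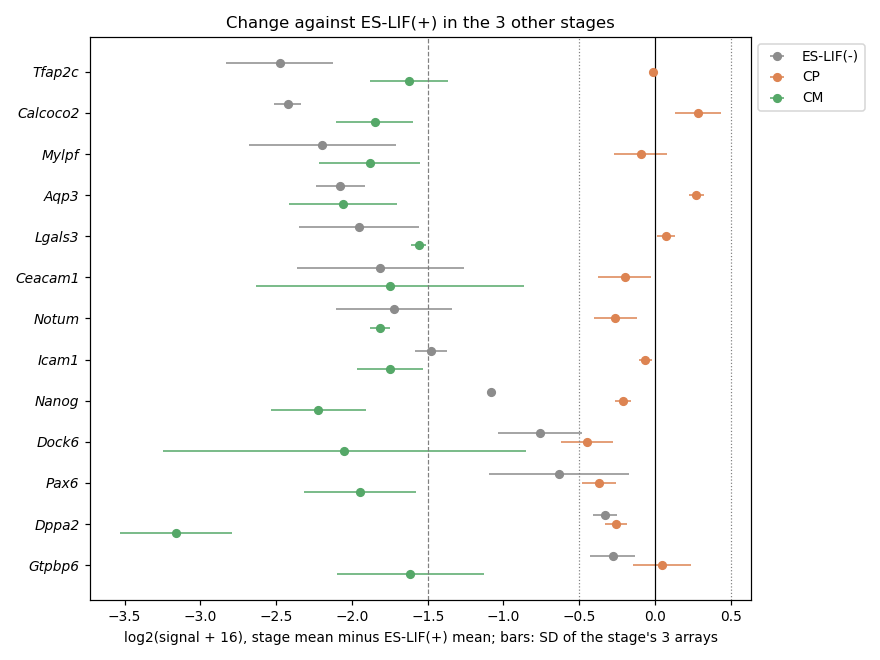
Difference of the ES-LIF(-), CP and CM means against ES-LIF(+) (x axis, log2(signal + 16)) for each gene, with bars of 1 SD of the 3 arrays of that stage. Dotted lines mark the CP window and the dashed line the CM threshold; the genes are ordered by their ES-LIF(-) difference, which lies beyond that of CM for the 6 genes lowest in ES-LIF(-).

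Array scaling moved the CP and CM values against ES-LIF(+). With each array centred on its own median, the CP values moved by -0.28 and the CM values by -0.32 against ES-LIF(+), and the ES-LIF(-) values by -0.01. The CP minus ES-LIF(+) difference of *Aqp3* (0.27 as deposited, on the log2(signal + 16) scale) became -0.01, that of *Lgals3* (0.07) -0.21 and that of *Gtpbp6* (0.05) -0.24, while that of *Calcoco2* (0.28) was close to 0. With quantile normalization the 4 differences were 0.10, 0.18, -0.07 and 0.30 in the same order. *Dock6*, *Dppa2*, *Notum* and *Pax6* left the CP window with median centring, at -0.74, -0.54, -0.54 and -0.65, and *Nanog* stayed just inside at -0.49. With quantile normalization *Dock6* (-0.62) and *Pax6* (-0.58) left it, and *Dppa2* (-0.12), *Notum* (-0.25) and *Nanog* (-0.08) stayed inside.

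Another probe set was at hand for 6 of the genes, 18 in all, of which 10 exceeded the array median on at least 3 arrays. Of these 10, 9 were lower by more than 1.5-fold in ES-LIF(-), 9 were lower by 1.5 or more in CM, and only 4 stayed within 0.5 in CP. For *Dppa2* the other probe set had a CP difference of -0.97, against -0.26 with the one used, while CM minus ES-LIF(+) was -3.35 and -3.16. For *Tfap2c* the 2 others gave -0.07 and -0.78 in CP. The 4 others of *Ceacam1* lay between -0.47 and -1.55 in CP, and all 4 carry the suffix _x_at or _s_at. Affymetrix gives these suffixes to probe sets that may match more than 1 transcript, so the level of *Ceacam1* apart from its close relatives is uncertain. The *Dppa2* probe set at -0.97 and the *Tfap2c* probe set at -0.78 also carry _s_at, so each probe set below the CP window has such a suffix. *Aqp3* gave 0.13 and 0.98 and *Pax6* -0.34. The stem cell level in CP thus held for some probe sets of these genes and not for others.

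**Figure D5:**
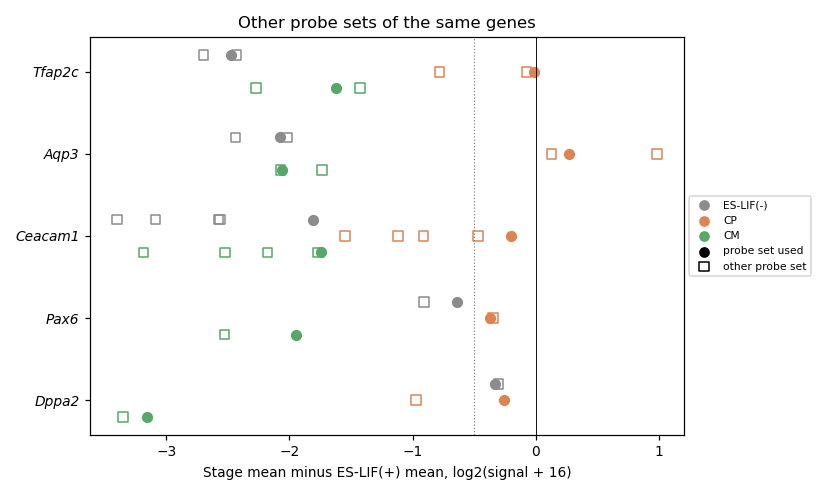
Difference against ES-LIF(+) (x axis, log2(signal + 16)) in ES-LIF(-), CP and CM for the probe set used (filled circles) and for other probe sets of the same gene above the array median on at least 3 arrays (open squares); the dotted line is the lower edge of the CP window. Open CP squares of *Dppa2*, *Tfap2c* and *Ceacam1* lie left of that edge, and all of these belong to probe sets with the suffix _s_at or _x_at.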

How the data were processed

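RNA of 4 stages was hybridized to 12 Affymetrix Mouse Genome arrays, 3 per stage. The authors made the deposited signal intensities with MAS5 and scaled the arrays; they are linear, relative values of 45037 probe sets (64 control probe sets set aside), without detection flags. A gene was represented by the probe set, of 34945 with a single gene in the platform table, with the highest mean log2 over the 12 arrays.

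Values were used as log2(signal + 16), which understates changes of dim genes. The 13145 genes above their array's median on at least 3 of 12 arrays, all 13 members included, were fitted over all 12 arrays with limma 3.58.1 (R 4.3.3, empirical Bayes moderation with an intensity trend, two-sided). P-values were adjusted by Benjamini-Hochberg over the tested genes, and a gene was called at an adjusted p under 0.05 if its fold exceeded 1.5. The procedure was tested on simulated data. The members and the gene lists were chosen with earlier results of these data known. The rule for named genes took members in any list, those with the largest falls in CM, the highest ES-LIF(+) signals, the largest called changes in ES-LIF(-), and the 3 genes nearest each threshold on either side; other members and the pluripotency genes outside the 13 were chosen after values were seen.

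Gene positions and promoters (250 bases before to 50 after the start) are from RefSeq, GRCm38.p6. Positions matched for all 13 genes and promoters for 9. Motifs and CpGs were counted only in the 250 bases before the start. Alternatives covered pseudocounts of 1 and 64, median centring, quantile normalization, the filter, the variance trend, the methods' one-way analysis of variance, a fit of the stem cell arrays alone, no fold threshold, a replicate block, the mean over probe sets, the thresholds of the choice, and each array left out; counts over genes with an ES-LIF(+) signal of 500 or more alone were added after seeing the data. No scan date or other batch is given in the sources used here.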

Additional observations from a re-analysis of the deposited data

How the results depend on the processing

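The number of genes that met the thresholds was 13, and it was 8 with a pseudocount of 64, 7 with the mean over all probe sets of a gene, 3 with CM at least 2 below both stages, 5 with an ES-LIF(+) signal of 1000 or more, and 11 to 16 with an array left out. It lay within 1.5 times of 13 under the other settings, among them median centring, under which 4 genes left and 3 entered. With quantile normalization it was 19, as 2 genes left and 8 entered. *Calcoco2*, *Icam1*, *Mylpf* and *Nanog*, 4 in all, stayed under every array left out and under both pseudocounts, both scalings and the mean over probe sets. The median ES-LIF(-) minus ES-LIF(+) difference of the 13 genes, -1.72, was -1.58 with a pseudocount of 64, -1.58 with quantile normalization, -1.60 over the 8 genes above the median on all 12 arrays, and -1.82 to -1.5 with an array left out. Of the 13, 6 to 10 were called lower and 0 higher under the settings that test this difference, and the 6 came from that filter, which tests 8 of them. The methods' one-way analysis of variance put 11 lower, but its p covers all 4 stages, including the CM values that chose the genes, and is no test of ES-LIF(-) against ES-LIF(+). *Dock6* also passed with the ES-LIF(+) and ES-LIF(-) arrays alone (adjusted p = 0.0139). With the replicate number as a block, 9 of the 13 were called lower and 0 higher, and 1057 genes were called in all, against 1053 without the block; deviations of same-numbered arrays correlated at -0.06 to 0.10 over 18 pairs. Between ES-LIF(-) and ES-LIF(+) the same-number values were 0.07 to 0.10 and 6 of 6 arrays correlated best with their own number. These same-numbered arrays also stand together in the order of deposit. The methods and labels name no pairs, so the numbers were not taken as pairs. In that order CP replicate 1 stands with replicate 2 of the other stages, and CP replicates 2 and 3 with replicate 3. The replicate block does not follow this order for CP, and a block by order of deposit was not tested. The 3 arrays per stage limit every estimate, and signals near the array median, as of *Aqp3* and *Pax6* in CM, are the least precise.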
